A study of Callithrix jacchus with 20 samples.

Results

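The genes that write, copy and remove DNA methylation were described in cells of the marmoset iPSC line DPZ_cjiPSC2 on their way to primordial germ cell–like cells (cjPGCLCs). The members were chosen by symbol and not by a rule on their values, but with earlier results of these data known. They are the DNA methyltransferases DNMT1, DNMT3A, DNMT3B and DNMT3L, the recruiting factor UHRF1 and its relative UHRF2. The others are the dioxygenases TET1, TET2 and TET3, and the glycosylase TDG. All 10 symbols were found among the 25102 genes of the count table, and 9 of them were among the 15797 genes with enough reads to be tested. DNMT3L was the exception.

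Poly(A) RNA was sequenced from 10 conditions with 2 biological replicates each. The cjiPSCs, all of this 1 line, were kept without feeders in TESR, a medium made for human iPSCs, or in cjPSCM, which holds CHIR, A419259, IWR-1, vitamin C, LIF, TGFβ and FGF2. From each medium, precursors of mesendoderm (pre-ME) were induced for 24 h with 3 μM of the WNT agonist CHIR, either with 100 ng/ml Activin A (+ ActA) or without it (- ActA). The pre-ME of cjPSCM cultures were further grown as embryoid bodies with BMP4, LIF, SCF and EGF, and on day 4 the double-positive cells (cjPGCLCs) and the double-negative cells (here called soma) were sorted from each ActA condition. The labels name EpCAM together with INTa6 or CXCR4 as the sort markers, whereas the study's methods name CXCR4 and INTα6. No embryoid bodies from TESR cultures were sequenced, and the day 4 cells were dissociated and sorted while the cjiPSCs and pre-ME were not, so time, sort and handling cannot be told apart in comparisons across these steps.

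DNA methylation in mammals sits mostly on cytosines that are followed by guanine. DNMT3A and DNMT3B place new methyl groups, and DNMT3L is an inactive relative that binds to both and stimulates them. DNMT1 copies the pattern to the new strand after replication, and UHRF1 brings it to the half-methylated sites. TET enzymes oxidise methylcytosine, and TDG cuts out the most oxidised forms, which base excision repair then replaces with plain cytosine. Primordial germ cells are known for losing most of their DNA methylation genome-wide during early development. RNA levels of these genes were measured here, but neither methylation nor protein.

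Reads counted on genes ranged from 4784964 to 22067099 per library with a median of 11599813, so that 3 counts stood for 0.136 to 0.627 CPM, the count scaled to the library total. Members other than DNMT3L had between 106 and 9271 counts in every library. The libraries of the cjiPSCs stood apart by their replicate spread. Reads outside genes made up 10.6% and 13.3% of TESR cjiPSC replicates 1 and 2, 12.2% and 19.3% of cjPSCM cjiPSC replicates 1 and 2 and 17.2% to 23.2% of the other 16 libraries, and their part in the results was not tested. When replicate 1 was set against replicate 2 on the log2 scale, the SD over the tested genes was 0.959 in cjPSCM and 0.619 in TESR, against 0.311 to 0.566 in the other 8 conditions. In cjPSCM cjiPSCs the difference reached the members, with 909 and 2819 normalised counts of DNMT3B in replicates 1 and 2 and 2106 and 3649.5 of UHRF1. Results that rest on these cjiPSCs are therefore given without either library as well. In a fit with 1 library left out, its condition keeps 1 library and adds nothing to the estimated spread. The p-values of such fits therefore do not measure the spread within that condition. Levels are the authors' counts divided by the size factor of the library (normalised counts), which are not scaled by gene length, so that levels are compared between conditions and not between genes.

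**Figure D1:**
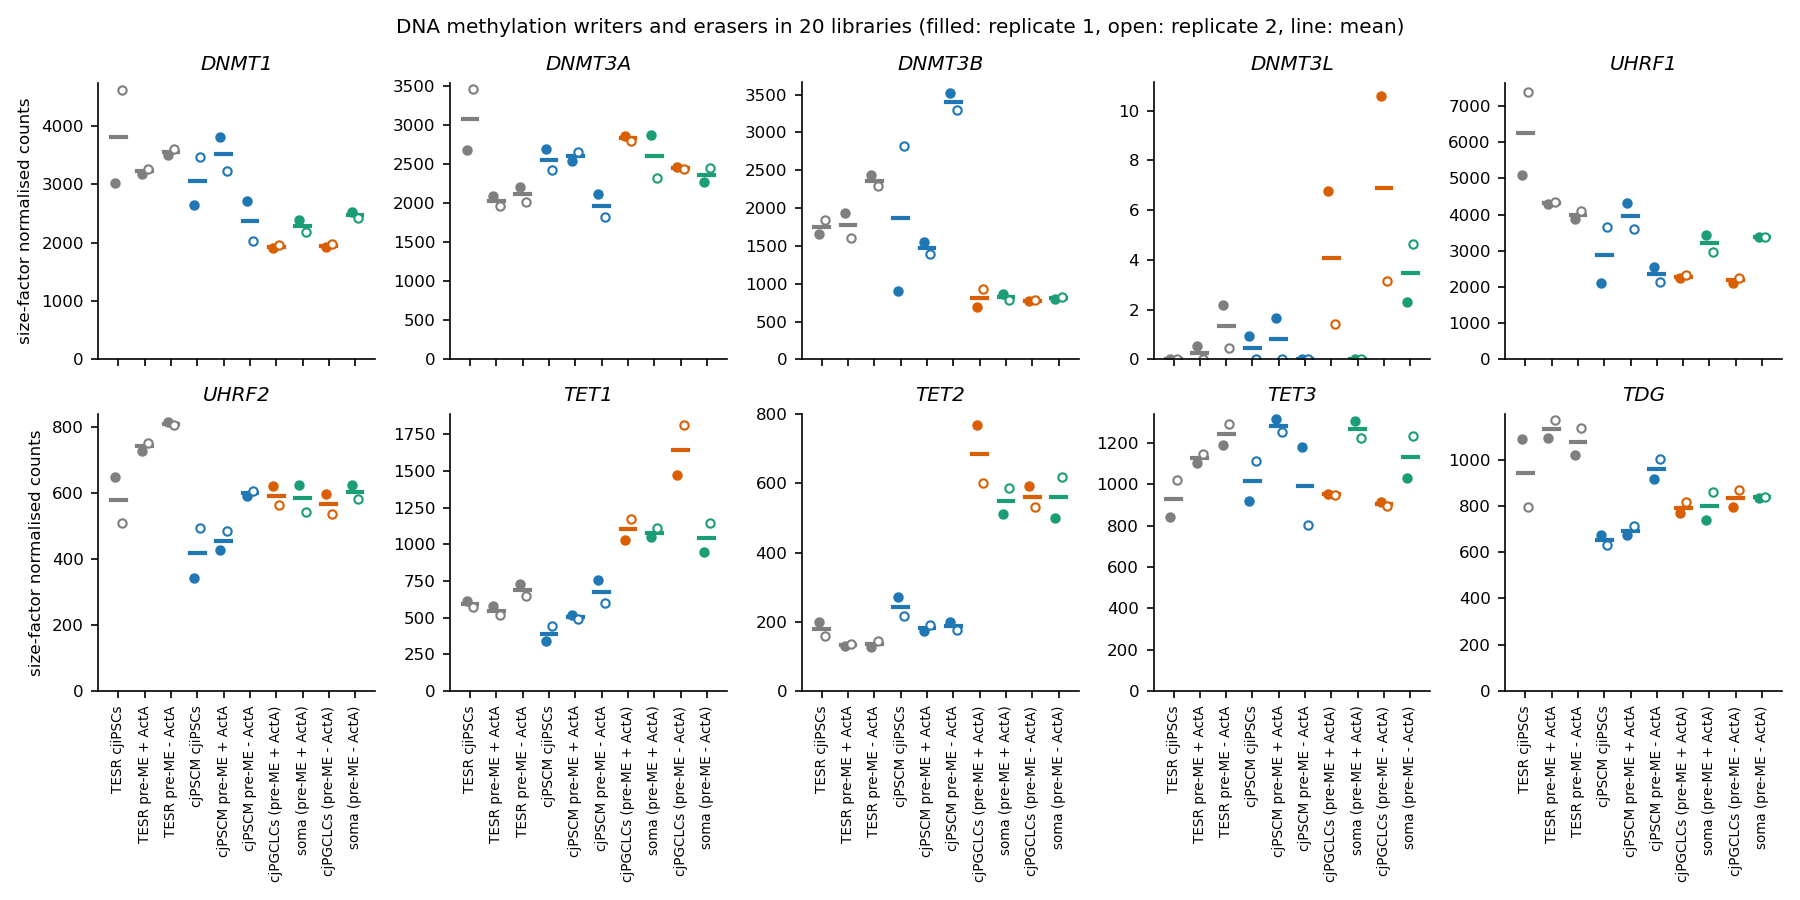
Normalised counts (y axis, linear from 0, scale set for each gene) of the 10 members in the 10 conditions (x axis), with replicate 1 as a filled point, replicate 2 as an open point and the mean as a line, in grey for TESR, blue for cjPSCM cjiPSCs and pre-ME, orange for cjPGCLCs and green for soma. TET1 and TET2 are higher in all 8 day 4 libraries than in the other 12, and DNMT3B lies between 691 and 926 in the day 4 libraries.

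TET1 and TET2 were the members whose day 4 libraries did not overlap with any earlier library. TET2 had 500.4 to 769 normalised counts in the 8 day 4 libraries, with a median of 589.5, and 127 to 272 in the 12 libraries of cjiPSCs and pre-ME, with a median of 174. For TET1 these ranges were 948 to 1814, with a median of 1125, and 340.0 to 754, with a median of 572. DNMT3B went the other way, at 691 to 926 with a median of 796 in day 4 libraries and 909 to 3519 with a median of 1892 in the others. It overlapped only through replicate 1 of the cjPSCM cjiPSCs. The mean over conditions varied least for TET3 and DNMT3A, whose highest condition was 1.42-fold and 1.56-fold above the lowest, and most for TET2 (5.17-fold), DNMT3B (4.38-fold) and TET1 (4.20-fold).

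The order of the conditions differed between the members. For TET2 the 4 day 4 conditions came first, at 685 ± 119.6 (SD, n = 2) in cjPGCLCs + ActA, 561 ± 42.8 in cjPGCLCs - ActA, 559.6 ± 83.7 in soma - ActA and 550.4 ± 52.2 in soma + ActA, where the last 3 overlapped and the first overlapped with soma - ActA. Then came cjPSCM cjiPSCs at 244 ± 39.5, the overlapping cjPSCM pre-ME and TESR cjiPSCs at 178 to 188, and the overlapping TESR pre-ME at 133 and 135. Each cjPSCM mean thus lay above its TESR counterpart for TET2, a difference that did not pass between the cjiPSCs (0.42 ± 0.18, adjusted p = 0.0808) and was not tested between the pre-ME.

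For TET1, cjPGCLCs - ActA stood above all others at 1643 ± 242, followed by cjPGCLCs + ActA (1103 ± 101) and both soma conditions (1078 ± 42.0 and 1045 ± 137), which overlapped, and cjPSCM cjiPSCs were lowest at 391 ± 71.9. DNMT3B was highest in cjPSCM pre-ME - ActA at 3408 ± 157, followed by TESR pre-ME - ActA at 2361 ± 106, and the 4 day 4 conditions overlapped at the bottom with means of 777 to 828. DNMT1 was lowest in both cjPGCLC conditions (1926 ± 36.3 and 1948 ± 37.7), below soma + ActA at 2284 ± 138. UHRF1 was highest in TESR cjiPSCs at 6246 ± 1610.1, and the 2 cjPGCLC conditions, at 2279.8 ± 61.5 and 2189.8 ± 101, overlapped with cjPSCM pre-ME - ActA at 2349 ± 283.

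UHRF2 and TDG shared their extremes. Both were highest in TESR pre-ME - ActA and + ActA, with means of 809 and 740.2 for UHRF2 and 1078 and 1131 for TDG, and lowest in cjPSCM cjiPSCs and cjPSCM pre-ME + ActA, with 417 and 455 for UHRF2 and 652 and 693 for TDG. DNMT3A ran from 3075 in TESR cjiPSCs to 1969 in cjPSCM pre-ME - ActA, and its 3 lowest conditions were all pre-ME. TET3 showed no gap between any neighbours in its order, from 1283 in cjPSCM pre-ME + ActA to 904 in cjPGCLCs - ActA.

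The first comparison asked how the medium of the pluripotent cells bears on these genes. UHRF1, UHRF2, TET1 and TDG were lower in cjPSCM than in TESR cjiPSCs, and no member was higher. These were 4 of the 9 tested members, while 36.2% of all tested genes passed an adjusted p of 0.05 in this comparison and 18.1% were lower. The median log2 fold change of the members was -0.34, against -0.00 over all genes tested. Marker lists differed as well. In cjPSCM, 2 of 6 tested pluripotency markers were higher and 1 lower, and 2 of 5 endoderm markers were higher. Of 10 mesoderm and 4 neural markers 3 and 2 were lower, and of 6 amnion-like markers 3 were lower and 1 higher. Of the pluripotency markers, NANOG and POU5F1 were higher (1.21 ± 0.26 and 0.89 ± 0.17) and LIN28A was lower (-0.99 ± 0.22). The pluripotency list summed to 13679.9 and 20855 normalised counts in cjPSCM replicates 1 and 2 and 19126 and 25062 in TESR. LIN28A alone had 5314 and 10593 in cjPSCM and 13998 and 17129.9 in TESR, so the lower sum mostly follows this 1 gene. The part of these markers in the differences of the members was not tested. UHRF1, the factor that guides DNMT1, had 5107 and 7384 normalised counts in TESR and 2106 and 3649.5 in cjPSCM. All TESR values lay above all cjPSCM values, and the log2 fold change was -1.14 ± 0.20 (SE, n = 2 libraries per condition, adjusted p = 3.13e-04, edgeR). Without replicate 1 or 2 of the cjPSCM cjiPSCs it was -0.81 or -1.56, still past the test. With edgeR on these 4 libraries alone UHRF1 passed (adjusted p = 0.0487), and TET1, TDG and UHRF2 did not (0.235, 0.262 and 0.399). TET1 had 615 and 569 in TESR and 340.0 and 442 in cjPSCM, which was a log2 fold change of -0.63 ± 0.16 (adjusted p = 0.00592). This call was lost without replicate 1 of cjPSCM (-0.46, adjusted p = 0.0622).

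TDG, which removes oxidised methylcytosine, differed by -0.56 ± 0.15 on the log2 scale between the media (adjusted p = 0.00639), from 1091 and 795 in TESR to 673 and 630.0 in cjPSCM. UHRF2, the relative of UHRF1, differed by -0.51 ± 0.16 (adjusted p = 0.0203), from 648 and 509 to 341 and 494. TDG was no longer past the test without TESR replicate 1 (adjusted p = 0.136), and UHRF2 neither without that library (0.234) nor without cjPSCM replicate 1 (0.202). Other members passed only with a library left out, namely DNMT1 (-0.60), DNMT3A (-0.44) and TET2 (0.64) without TESR replicate 1, and DNMT1 (-0.52) and TET2 (0.59) without cjPSCM replicate 2. DNMT3B showed no common direction in cjPSCM. Its TESR libraries, at 1658 and 1842, lay between the 2 cjPSCM libraries, and the log2 fold change was 0.06 ± 0.30. It was 0.65 without cjPSCM replicate 1 and -0.94 without cjPSCM replicate 2. The replicates were labelled as biological, but separate passages or differentiations are not named, so the p-values here measure the spread between these samples.

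Pre-induction from TESR cultures was marked by less DNMT3A. Its normalised counts were 2687 and 3463 in TESR cjiPSCs, 2095 and 1958 in pre-ME + ActA and 2213 and 2013 in pre-ME - ActA. With ActA the log2 fold change was -0.59 ± 0.14 (adjusted p = 0.00344), and this was the 1 member past the test, against 34.5% of all genes. UHRF1 was at -0.52 ± 0.20 (adjusted p = 0.0528) and passed in DESeq2 (0.0406). Without TESR cjiPSC replicate 1, DNMT1 (-0.49), UHRF1 (-0.74), UHRF2 (0.57) and TDG (0.54) passed as well, and without replicate 2 TET2 did (-0.59). In pre-ME - ActA the DNMT3A change was -0.53 ± 0.14 (adjusted p = 0.00652), and the call was lost without TESR cjiPSC replicate 2 (adjusted p = 0.0654) or pre-ME replicate 2 (0.0737). UHRF1 fell as well in pre-ME - ActA (-0.63 ± 0.20, adjusted p = 0.0204), while TET3 rose by 0.43 ± 0.16 (adjusted p = 0.0373) and UHRF2 by 0.49 ± 0.16 (adjusted p = 0.0223). That made 4 of 9 members, beside 36.6% of all genes. With edgeR on the libraries of each comparison alone no member passed, with DNMT3A at 0.0571 and 0.0858 with and without ActA. DNMT3B, at 0.45 in pre-ME - ActA (adjusted p = 0.263), passed without the filter on low counts (0.0206). The calls of UHRF1, UHRF2 and TET3 were each lost without either pre-ME library (adjusted p = 0.0759 to 0.194), UHRF1 and UHRF2 also without TESR cjiPSC replicate 2 (0.215 and 0.175), and TET3 without TESR cjiPSC replicate 1 (0.195). TET2 passed without TESR cjiPSC replicate 2 (-0.56) and TDG without replicate 1 (0.47).

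Pre-induction from cjPSCM cultures without ActA went with more DNMT3B, TET1, TDG and UHRF2. These 4 of 9 members rose, while 38.0% of all genes passed the test and 17.9% rose. DNMT3B reached its highest level of the study here, with 3519 and 3297 normalised counts. That was 0.92 ± 0.30 on the log2 scale above the 909 and 2819 of the cjPSCM cjiPSCs (adjusted p = 0.0252), but 0.32 (adjusted p = 0.150) without cjiPSC replicate 1 and 1.92 (adjusted p = 1.54e-07) without replicate 2. Without pre-ME replicate 1 or 2 the DNMT3B call was lost as well (adjusted p = 0.0929 and 0.0638). TET1 rose from 340.0 and 442 to 754 and 597, which was 0.84 ± 0.16 (adjusted p = 8.61e-04). TDG rose by 0.59 ± 0.15 (adjusted p = 0.00471), to 917 and 1004 from 673 and 630.0. Both calls held without each library in turn, with an adjusted p of at most 0.0165 for TET1 and 0.0387 for TDG, but not with edgeR on these 4 libraries alone (0.0824 and 0.0818), where no member passed. DNMT3A, at -0.34 ± 0.14 (adjusted p = 0.0574), passed in DESeq2 (0.0293) and with its size factors in edgeR (0.0418). UHRF2 rose by 0.56 ± 0.16 (adjusted p = 0.0115), a call lost without cjiPSC replicate 1 (0.157) or pre-ME replicate 2 (0.0512). DNMT3A (-0.44) and TET2 (-0.52) passed without cjiPSC replicate 2, and UHRF1 (-0.58) without cjiPSC replicate 1.

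With ActA, none of the 9 members passed edgeR's test between cjPSCM pre-ME and cjiPSCs, where 17.7% of all genes did. There were 4 members with an unadjusted p under 0.05, and DESeq2 called 0. DNMT3B had 1558 and 1399 normalised counts, between the values of the 2 cjiPSC libraries. Its log2 fold change of -0.30 ± 0.30 became -0.90 without cjiPSC replicate 1 and 0.70 without replicate 2. UHRF1 was at 0.49 ± 0.20 (adjusted p = 0.103), and at 0.91 without replicate 2 (adjusted p = 8.06e-04). TET1 (0.57), TET2 (-0.59) and TET3 (0.48) also passed without that library.

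ActA itself was compared in pre-ME of the same medium. This compares no cjiPSC levels, but the spread in the test was estimated over all 20 libraries, those of the cjiPSCs among them. In pre-ME from cjPSCM, DNMT3B was 2.33-fold lower with ActA, and DNMT1 and UHRF1, the pair that maintains methylation, were 1.47-fold and 1.67-fold higher. The DNMT3B values of 1558 and 1399 with ActA lay far below the 3519 and 3297 without it, a log2 fold change of -1.22 ± 0.31 (adjusted p = 0.0114). DNMT1 had 3812 and 3234 with ActA and 2711 and 2032 without (0.55 ± 0.17, adjusted p = 0.0333). UHRF1 had 4329 and 3616 with ActA and 2549 and 2149 without (0.74 ± 0.20, adjusted p = 0.0169). TDG was lower with ActA, at 672 and 715 against 917 and 1004 (-0.49 ± 0.14, adjusted p = 0.0254). Thus 4 of 9 members passed the test, beside 20.9% of all genes, and 8 of 9 had an unadjusted p under 0.05. DNMT3A, at 0.38 ± 0.14 (adjusted p = 0.0557), passed in DESeq2 (0.0274), with its size factors in edgeR (0.0494) and with these 4 libraries alone (0.0391). UHRF2 (-0.41) and TET1 (-0.44) also passed in edgeR with these 4 libraries alone (adjusted p = 0.0332 and 0.0380).

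Each of these 4 calls was lost without 1 of several libraries. DNMT1 and UHRF1 were lost without + ActA replicate 1 (adjusted p = 0.268 and 0.172) or - ActA replicate 2 (0.295 and 0.149). DNMT3B and TDG were lost without either of these (0.0807 and 0.189 without the first, 0.0537 and 0.147 without the second) and without + ActA replicate 2 (0.0726 and 0.0858). The direction stayed as given in each of these fits, and TET3 passed without - ActA replicate 1 (0.64). Of 16 S phase genes, 1 (CDT1, a licensing factor of replication) rose with ActA in these pre-ME and none fell, with summed levels of 34111 and 32701 normalised counts with ActA and 30672 and 30879.8 without. The part of cell cycling in the difference of DNMT1 and UHRF1 was not tested.

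In pre-ME from TESR cultures, 0 of 9 members passed edgeR's test for ActA, where 8.84% of all genes did, with 1 at an unadjusted p under 0.05 and 0 by DESeq2. DNMT3B had 1942 and 1611 normalised counts with ActA and 2436 and 2286 without. These did not overlap, but the log2 fold change of -0.41 ± 0.30 did not pass (adjusted p = 0.530). With edgeR on these 4 libraries alone, DNMT3B (0.0165), TET1 (-0.33, 0.0298) and DNMT1 (-0.14, 0.0483) passed. In the test of whether the ActA effect differed between the media, 0.399% of all genes and 0 members passed, with 5 members at an unadjusted p under 0.05 and 0 by DESeq2. This result depended on the fit, since edgeR on these 8 libraries alone called DNMT1 (adjusted p = 0.0279), DNMT3A (0.0469), DNMT3B (0.0109), UHRF1 (0.0235) and TDG (0.0253), and DNMT3B passed without the filter on low counts (0.0152). The difference was -0.81 ± 0.43 for DNMT3B (adjusted p = 0.330) and 0.69 ± 0.24 for DNMT1 (adjusted p = 0.182).

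The change from cjiPSCs to pre-ME was compared between the media in the same way. With ActA, UHRF1 was the 1 member past this test, beside 6.20% of all genes. Its log2 change was -0.52 ± 0.20 in TESR and 0.49 ± 0.20 in cjPSCM, a difference of 1.01 ± 0.28 (adjusted p = 0.0432). Without cjPSCM cjiPSC replicate 1 the difference was 0.67 (adjusted p = 0.0621), and without replicate 2 it was 1.43 (adjusted p = 4.79e-04). The call was also lost without cjPSCM pre-ME replicate 1 or 2 (0.196 and 0.0563), TESR pre-ME replicate 1 or 2 (0.138 and 0.114) or TESR cjiPSC replicate 2 (0.154), and so without 6 of the 8 libraries. It was lost as well with DESeq2 size factors (0.0517) and with these 8 libraries alone (0.335). DNMT3B was at -0.34 ± 0.43, at -0.94 without cjPSCM cjiPSC replicate 1 and at 0.66 without replicate 2. DNMT3A passed without cjPSCM cjiPSC replicate 1 (0.72), and DNMT1 (0.71) and DNMT3A (0.78) without TESR cjiPSC replicate 1. Without ActA, 0 members passed (6.54% of all genes), with 1 at an unadjusted p under 0.05 and 0 by DESeq2. DNMT3B (1.48), UHRF1 (0.80) and TET1 (0.79) passed when cjPSCM cjiPSC replicate 2 was left out, and TDG (0.62) without TESR cjiPSC replicate 2.

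Between pre-ME and day 4, TET1 and TET2 rose in cjPGCLCs and in soma, and DNMT3B fell in both. Pluripotency markers fell over the same step, with 6 and 5 of 6 tested lower in cjPGCLCs and 4 and 6 in soma under + ActA and - ActA and none higher, and with summed levels of 7714 to 13311 normalised counts in day 4 libraries and 13679.9 to 25062 in the 12 others. Their part in the changes of the members was not tested. TET2 had 172 and 192 normalised counts in pre-ME + ActA, 769 and 600.0 in the cjPGCLCs and 513 and 587 in the soma derived from them. Its log2 fold change was 1.92 ± 0.18 in cjPGCLCs (adjusted p = 5.46e-07) and 1.59 ± 0.18 in soma (adjusted p = 3.62e-06). Under - ActA, TET2 rose from 199 and 176 to 592 and 531 in cjPGCLCs and to 500.4 and 619 in soma, by 1.57 ± 0.18 and 1.55 ± 0.18 (adjusted p = 4.26e-06 and 4.85e-06). All 4 changes remained past the test without each library in turn. As these are bulk libraries, a lower share of cells with a transcript and less of it in each cell cannot be told apart, nor can their opposites.

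TET1 had 519.8 and 493 normalised counts in pre-ME + ActA, 1031 and 1174 in cjPGCLCs and 1048 and 1108 in soma. The log2 fold changes were 1.12 ± 0.16 (adjusted p = 3.03e-05) and 1.08 ± 0.16 (adjusted p = 4.46e-05). Under - ActA it rose from 754 and 597 to 1472 and 1814 in cjPGCLCs, by 1.26 ± 0.16 (adjusted p = 1.05e-05), and to 948 and 1142 in soma, by 0.60 ± 0.16 (adjusted p = 0.00581). The soma call was lost without soma replicate 2 (adjusted p = 0.114) or pre-ME replicate 2 (0.102). TET3 did not share this rise. It had 1314 and 1253 in pre-ME + ActA and 954 and 947 in the cjPGCLCs, which was a log2 fold change of -0.43 ± 0.16 (adjusted p = 0.0319), and the call was lost without any single library of these 4 (adjusted p = 0.0624 to 0.139). In the other 3 comparisons with pre-ME, TET3 lay between -0.15 and 0.16 and did not pass, but in soma - ActA it was at 0.45 without pre-ME replicate 1 (adjusted p = 0.0372).

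**Figure D2:**
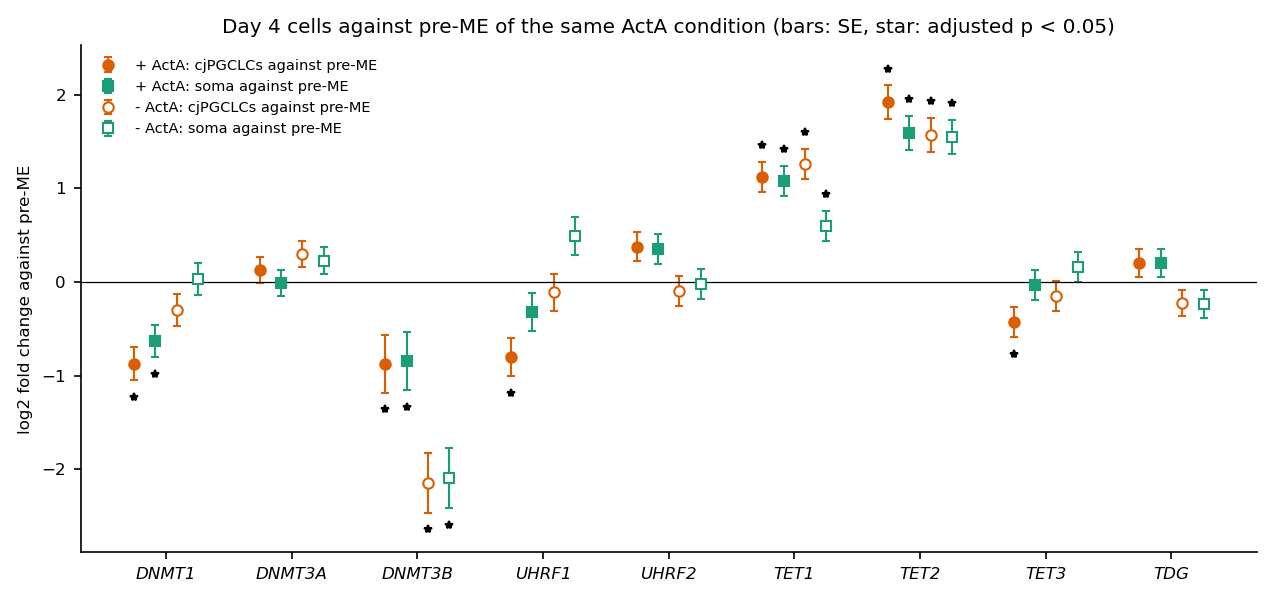
Log2 fold change (y axis) of the 9 tested members (x axis) in day 4 cells against the cjPSCM pre-ME of the same ActA condition, with the SE as bars, stars for an adjusted p under 0.05, circles for cjPGCLCs, squares for soma, filled symbols for + ActA and open symbols for - ActA (n = 2 libraries per condition). TET1 and TET2 lie above 0 with a star in all 4 comparisons, and DNMT3B lies below 0 with a star in all 4.

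DNMT3B showed its largest differences between pre-ME - ActA and day 4. From 3519 and 3297 normalised counts it fell to 772 and 783 in cjPGCLCs, a log2 fold change of -2.14 ± 0.32 (adjusted p = 5.74e-05), and to 803 and 831 in soma, -2.09 ± 0.32 (adjusted p = 7.18e-05). Both were beyond 2 on the log2 scale, the size at which the study called genes, as were 7.88% and 7.94% of all genes together with the adjusted p. From the lower pre-ME + ActA, at 1558 and 1399, DNMT3B fell to 691 and 926 in cjPGCLCs (-0.87 ± 0.31, adjusted p = 0.0283) and to 868 and 789 in soma (-0.84 ± 0.31, adjusted p = 0.0344). The day 4 levels thus differed little between the ActA conditions although the pre-ME levels did. The - ActA calls held without each library in turn, with an adjusted p of at most 0.00192. Of the + ActA calls, the one in soma was lost without any single library of the 4 (adjusted p = 0.0573 to 0.155) and the one in cjPGCLCs without cjPGCLC replicate 1 (0.193) or either pre-ME library (0.122 and 0.0507). DNMT3A, the other de novo enzyme, lay between -0.01 and 0.30 in these 4 comparisons and passed in 0 of them. Counts of DNMT3B per count of DNMT3A fell to 0.241 to 0.353 in all 8 day 4 libraries, from 1.66 and 1.81 in cjPSCM pre-ME - ActA and 0.612 and 0.526 in pre-ME + ActA.

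DNMT1 and UHRF1, the pair that maintains methylation, were compared over the same step. No test of a difference in this step between the ActA conditions was made. DNMT1 fell from 3812 and 3234 normalised counts in pre-ME + ActA to 1901 and 1952 in cjPGCLCs (-0.87 ± 0.18, adjusted p = 6.83e-04) and to 2381 and 2187 in soma (-0.63 ± 0.17, adjusted p = 0.00686). The call in soma was lost without pre-ME replicate 1 (adjusted p = 0.0750) or soma replicate 2 (0.0612). UHRF1 fell from 4329 and 3616 to 2236 and 2323 in cjPGCLCs (-0.80 ± 0.20, adjusted p = 0.00366), while soma, at 3449 and 2969.6, differed by -0.32 ± 0.20 (adjusted p = 0.205, or 0.0197 with these libraries alone). Under - ActA neither gene passed. DNMT1 was at -0.30 ± 0.17 in cjPGCLCs and 0.03 ± 0.17 in soma, and UHRF1 at -0.11 ± 0.20 and 0.49 ± 0.20 (adjusted p = 0.684 and 0.0570, and in soma 0.0406 by DESeq2 and 0.00689 with these libraries alone). UHRF2 and TDG passed in none of the 4 comparisons over all libraries. Under + ActA, UHRF2 was at 0.38 in cjPGCLCs and 0.35 in soma (adjusted p = 0.0586 and 0.0850), and it passed with the libraries of each comparison alone (0.0121 and 0.00744) and, in cjPGCLCs, with a filter at a mean of 1 CPM (0.0468). In all, 6 of 9 members passed the test in cjPGCLCs and 4 in soma under + ActA, beside 48.4% and 48.0% of all genes, and 3 each under - ActA, beside 40.0% and 42.2%. The median log2 fold change of the members was 0.13 and -0.01 under + ActA and -0.11 and 0.16 under - ActA, and over all genes tested it was 0.00 to 0.04.

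Most genes of an S phase list fell from pre-ME to day 4 under both ActA conditions. Of 16 such genes, among them the sliding clamp PCNA, MCM helicase subunits and RRM2, 14 fell and none rose from pre-ME + ActA to cjPGCLCs and to soma, and 10 fell and none rose under - ActA. Their median log2 fold changes were -0.78 and -0.72 under + ActA and -0.50 and -0.46 under - ActA, against 0.00 to 0.04 over all genes tested. The summed level of the list was 18746 to 23488 normalised counts in the 8 day 4 libraries and 29851 to 40234 in the 12 others. It also differed between the media, with 10 of 16 genes lower in cjPSCM than in TESR cjiPSCs and none higher. The part of cell cycling in the levels of DNMT1 and UHRF1 was not tested. DNMT1 and UHRF1 did not keep a fixed ratio, at 0.592 and 0.624 counts of DNMT1 per count of UHRF1 in TESR cjiPSCs, 1.26 and 0.948 in cjPSCM cjiPSCs, 0.840 to 0.907 in cjPGCLCs and 0.690 to 0.744 in soma.

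**Figure D3:**
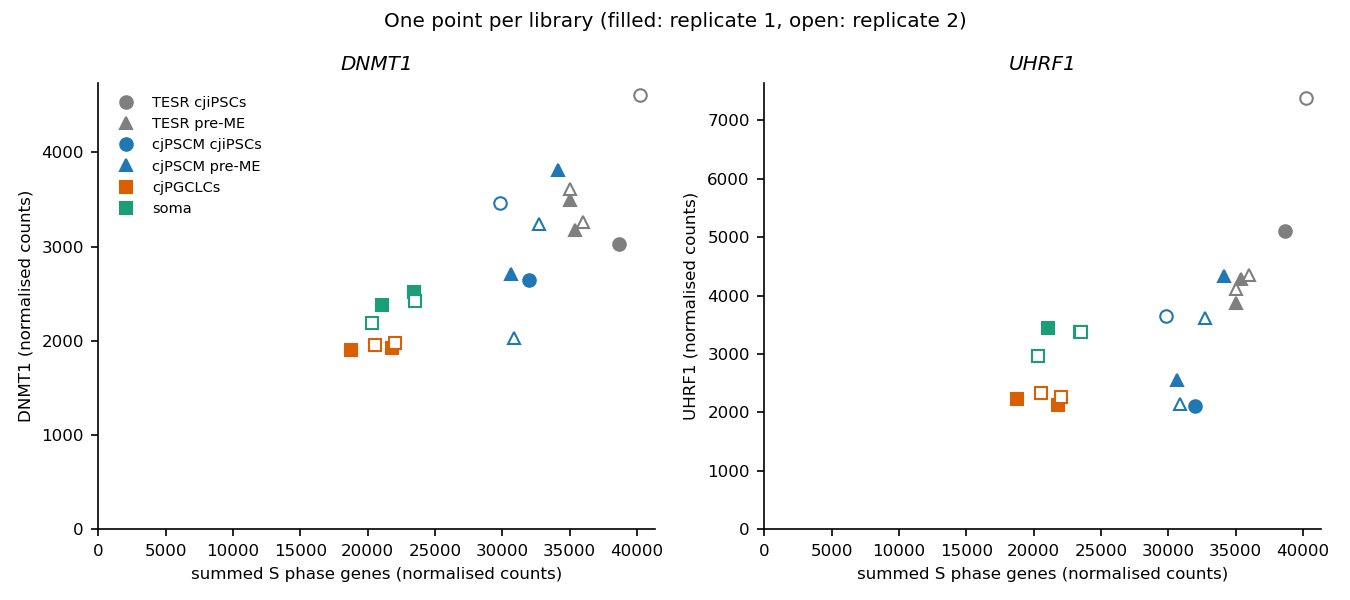
Normalised counts of DNMT1 and UHRF1 (y axes) against the summed normalised counts of 16 S phase genes (x axis), with 1 point for each of the 20 libraries, filled for replicate 1 and open for replicate 2. The 8 day 4 libraries, shown as squares, lie between 18746 and 23488 on the x axis, and the cjPGCLCs lie below the soma for both genes.

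The sort asked which genes set cjPGCLCs apart from the cells beside them in the same embryoid bodies. Under + ActA, 0 of 9 members passed edgeR's test, beside 4.84% of all genes, with 2 at an unadjusted p under 0.05 and 0 by DESeq2. Under - ActA, TET1 was the 1 member past it, beside 9.63% of all genes. TET1 had 1472 and 1814 normalised counts in cjPGCLCs and 948 and 1142 in soma, without overlap, a log2 fold change of 0.67 ± 0.16 (adjusted p = 0.0111). The call was lost without cjPGCLC replicate 2 (0.50, adjusted p = 0.158) or soma replicate 1 (0.54, adjusted p = 0.148). Under + ActA the TET1 fold change was 0.04 ± 0.16. The difference of -0.62 ± 0.22 between these effects did not pass (adjusted p = 0.542). For this difference of the sorting effect, 0 members and 0.0633% of all genes passed, with 1 member at an unadjusted p under 0.05 and 0 by DESeq2.

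UHRF1 was lower in cjPGCLCs than in soma in all libraries, at 2236 and 2323 against 3449 and 2969.6 under + ActA and at 2118 and 2262 against 3383 and 3374 under - ActA. The log2 fold changes of -0.48 ± 0.20 and -0.61 ± 0.20 did not pass in edgeR over all libraries (adjusted p = 0.229 and 0.0706). The second passed in DESeq2 (0.0424) and without the filter (0.00328), and both passed when edgeR was fitted to the libraries of the comparison alone (0.0115 and 8.48e-04). DNMT1 did not overlap either, at 1901 to 1975 in the 4 cjPGCLC libraries and 2187 to 2518 in the 4 soma libraries, and did not pass (-0.24 ± 0.18 and -0.32 ± 0.18, adjusted p = 0.616 and 0.322, or 0.0918 and 0.0201 with these libraries alone). TET3 was at 895 to 954 in cjPGCLCs and 1031 to 1308 in soma (-0.40 ± 0.16 and -0.31 ± 0.16, adjusted p = 0.191 and 0.287, or 0.0137 and 0.0658 with these libraries alone). DNMT3B differed by -0.03 ± 0.31 and -0.05 ± 0.32, DNMT3A by 0.13 ± 0.14 and 0.07 ± 0.14 and TET2 by 0.33 ± 0.17 and 0.02 ± 0.17. The fall of DNMT3B and the rise of TET2 were therefore not shown to be particular to the cjPGCLCs.

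The sorted cells were checked against their markers. The sort genes CXCR4, ITGA6 and EPCAM were all higher in cjPGCLCs than in soma, and 5 of 8 germ cell markers were as well, with SOX17 at 913 and 1034 normalised counts against 143 and 219 under + ActA and at 2152 and 2096 against 48.4 and 118 under - ActA. NANOS3 had 14.2 to 61.5 in cjPGCLCs and 0 to 3.54 in soma. Endoderm markers rose with them. Of 5 tested, 3 were higher in cjPGCLCs under each ActA condition, with FOXA2 at 83.9 to 518 in cjPGCLCs and 0 to 4.61 in soma, and HNF4A at 131 to 835 and 1.55 to 9.22. The summed endoderm list was 5609 and 3464 normalised counts in cjPGCLCs and 3794 and 2689 in soma under + ActA, and 8575 and 5557 against 5353 and 4705 under - ActA. From pre-ME to day 4, 5 of 5 tested endoderm markers rose in cjPGCLCs under each ActA condition. In soma 3 and 2 rose under + ActA and - ActA, and none fell in either population. Both sorted populations held transcripts of some mesoderm and amnion-like markers. The mesoderm list summed to 7981 to 15587 in day 4 libraries and 173 to 1466 before, with PDGFRA and HAND1 at 4611 and 2496 on average in cjPGCLCs + ActA against 49.3 and 17.5 in their pre-ME. Other mesoderm markers fell there, EOMES by a log2 fold change of -2.89 and MIXL1 by -1.39 (adjusted p = 0.00235 and 0.0356). From pre-ME to day 4, 3 and 4 of 10 tested mesoderm markers rose in cjPGCLCs and soma under each ActA condition, and 2 fell in both populations under + ActA and none under - ActA. The amnion-like list summed to 7162 to 12149.6 at day 4 and 708 to 2227 before. Part of it also moved with the sort. Under + ActA and - ActA, 2 and 3 of 6 tested markers were higher in cjPGCLCs than in soma and none lower. GATA2 differed by 1.37 and 2.20 and TFAP2B by 4.99 and 3.67 on the log2 scale. GATA3 and ISL1 had lower means in cjPGCLCs without passing the test, at 3328 and 1560.0 against 4246 and 1695 under + ActA. Under - ActA they had 3913 and 1337 against 4607 and 1472. The list summed to 7586 and 8958 in cjPGCLCs and 7162 and 7376 in soma under + ActA. Under - ActA it summed to 12149.6 and 11579 in cjPGCLCs and 8085 and 7325 in soma. Neural markers were lower in cjPGCLCs in 1 and 2 of 4 tested and higher in none, with FEZF2 at -1.97 and -1.80 and, under - ActA, NES at -0.90. Their list summed to 10764 to 17966 in cjPGCLCs and 21260.3 to 27203 in soma, nearly all of it NES. NES averaged 25872 and 22147 in soma under + ActA and - ActA, and 23200.5 and 20898 in TESR and cjPSCM cjiPSCs. PAX6 had 0 to 9.28 and SOX1 had 0 in the soma libraries. Of the mesoderm markers, SNAI2 was lower in cjPGCLCs under - ActA (-1.17, adjusted p = 2.84e-04). Of 6 tested pluripotency markers, SOX2 was lower in cjPGCLCs under + ActA (-1.04, adjusted p = 0.0225) and SALL4 higher under - ActA (0.74, adjusted p = 0.0189), where DESeq2 called 3. Their list summed to 7714 and 10131 in cjPGCLCs and 11562 and 11184 in soma under + ActA, and to 11577 and 13311 against 11263 and 10762 under - ActA. The part of these cells in the TET1 difference and in the changes from pre-ME was not tested.

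Measured from the cjPSCM cjiPSCs, cjPGCLCs had more TET1, TET2 and UHRF2 and less DNMT3B and DNMT1 under both ActA conditions. TET1 rose from 340.0 and 442 normalised counts by 1.52 ± 0.16 under + ActA (adjusted p = 1.88e-06) and by 2.10 ± 0.16 under - ActA (adjusted p = 6.26e-08), the second of these beyond 2 as were 10.8% of all genes. Without cjiPSC replicate 1 the second was 1.92 and no longer beyond 2. TET2 rose from 272 and 216 by 1.50 ± 0.18 (adjusted p = 5.62e-06) and 1.22 ± 0.18 (adjusted p = 3.83e-05). These 4 changes and those of DNMT1 (-0.64 ± 0.17 and -0.62 ± 0.17, adjusted p = 0.00600 and 0.00700) held without each library in turn. With edgeR on the libraries of the comparison alone, TET1 and TET2 passed and the calls of DNMT1 were lost (0.0759 and 0.0716), as were those of DNMT3B (0.176 and 0.141) and UHRF2 (0.149 and 0.193). UHRF2 rose by 0.53 ± 0.16 and 0.48 ± 0.16 (adjusted p = 0.0117 and 0.0213), calls that were lost without cjiPSC replicate 1 (0.166 and 0.265) or cjPGCLC replicate 1 (0.0920 and 0.147). TDG passed under - ActA (0.37 ± 0.15, adjusted p = 0.0426) and was lost without any single library of the 4 (0.0604 to 0.217) and in DESeq2 (0.0554). Thus 5 and 6 of 9 members passed, beside 50.9% and 52.5% of all genes, with medians of 0.17 and -0.04 against 0.05 over all genes.

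DNMT3B depended on which cjiPSC library was used. Over both, it was -1.18 ± 0.31 under + ActA and -1.22 ± 0.31 under - ActA (adjusted p = 0.00498 and 0.00368). The cjiPSC values of 909 and 2819 overlapped with the 691 and 926 of the cjPGCLCs under + ActA. Without cjiPSC replicate 1 the log2 fold changes were -1.78 and -1.83 (adjusted p = 2.73e-07 and 1.49e-07), and without replicate 2 they were -0.19 and -0.24 (adjusted p = 0.329 and 0.222). Without cjPGCLC replicate 1 the + ActA call was lost as well (-0.98, adjusted p = 0.0614). UHRF1 did not pass over both libraries (-0.31 ± 0.20 and -0.37 ± 0.20) and was at -0.65 and -0.70 without cjiPSC replicate 1 (adjusted p = 0.00660 and 0.00375).

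The ActA given in pre-induction was also compared within the day 4 populations. Between cjPGCLCs of the + ActA and - ActA conditions 0 of 9 members passed in edgeR, beside 2.53% of all genes, with 1 at an unadjusted p under 0.05. TET1 was that gene, at 1031 and 1174 against 1472 and 1814 normalised counts, without overlap (-0.58 ± 0.16, adjusted p = 0.0581), and it was the 1 member called by DESeq2 (adjusted p = 0.0225) and by edgeR on the cjPGCLC libraries alone (0.0382). In soma, 0 of 9 members passed, beside 0.0253% of all genes, with 0 at an unadjusted p under 0.05 and 0 by DESeq2. DNMT3B, which had differed 2.33-fold in pre-ME, was at 0.05 ± 0.31 in cjPGCLCs and 0.02 ± 0.32 in soma.

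DNMT3L, the inactive partner of DNMT3A and DNMT3B, was at the edge of detection. It had 25 counts in all over the 4 cjPGCLC libraries, with 1 to 14 in each, 4 over the 4 soma libraries, with at most 3 in each, and 9 over the 12 others, with at most 4 in each. Pooled over libraries this was 0.607, 0.159 and 0.0491 CPM. All 4 cjPGCLC libraries held a count, but 2 of them had 3 counts or fewer, and the replicates differed, at 6.76 and 1.42 normalised counts under + ActA and 10.6 and 3.15 under - ActA. The gene did not pass the filter on low counts, and no fold change is given. Without that filter, edgeR called it higher in cjPGCLCs - ActA than in their pre-ME and in cjPSCM cjiPSCs (adjusted p = 0.00176 and 0.0310). These pre-ME held 0 counts and these cjiPSCs 1, and DESeq2 gave no adjusted p for either comparison. Intervals from such counts would cover counting error only.

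**Figure D4:**
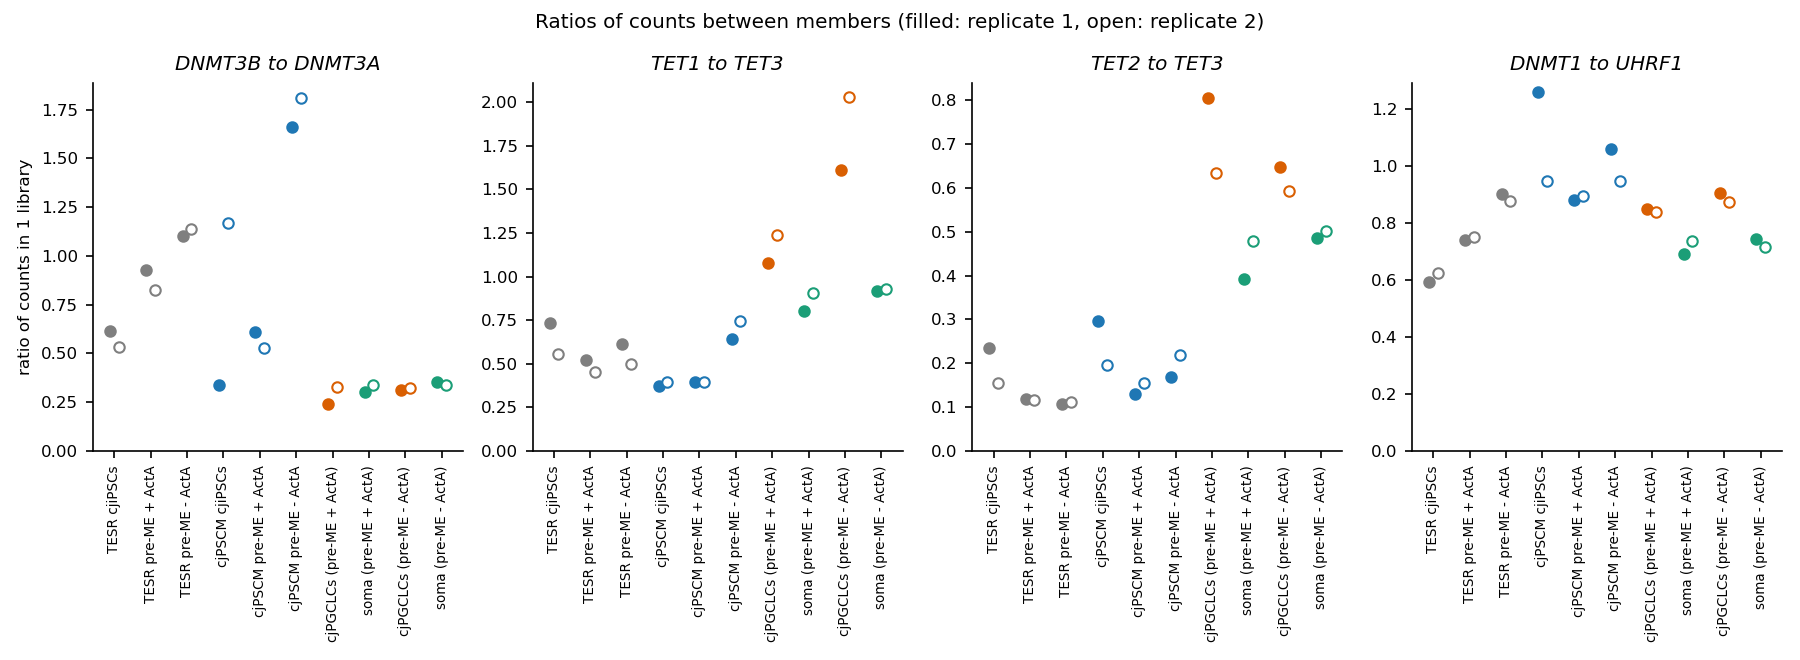
Ratios of counts between pairs of members within a library (y axes, linear from 0, not scaled by gene length) in the 10 conditions (x axis), filled for replicate 1 and open for replicate 2. DNMT3B per DNMT3A lies between 0.241 and 0.353 in all 8 day 4 libraries, and TET1 per TET3 is highest in cjPGCLCs of the - ActA condition, at 1.61 and 2.03.

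Relative to TET3, the other TET genes took a larger share of the counts at day 4. There were 0.371 to 0.745 counts of TET1 per count of TET3 in the 12 libraries of cjiPSCs and pre-ME, 0.801 to 0.927 in soma, 1.08 and 1.24 in cjPGCLCs under + ActA and 1.61 and 2.03 under - ActA. For TET2 these ratios were 0.107 to 0.297 before day 4, 0.392 to 0.503 in soma and 0.593 to 0.806 in cjPGCLCs. Both ratios were higher in each cjPGCLC library than in each soma library, and in each soma library than before. As the ratio changes with either gene, it shows unequal change only.

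Other genes of the pathway were read from 4 lists. From pre-ME to day 4, 48.4% and 48.0% of all genes passed the test in cjPGCLCs and soma under + ActA and 40.0% and 42.2% under - ActA. No list was tested against these shares, and with 9 to 15 genes in each nothing particular to a list is read from its count. Partners of the maintenance step were read from 10 genes, of which 9 were tested. From pre-ME to day 4, 3 fell in cjPGCLCs and 4 in soma under + ActA, and 2 and 3 under - ActA, while 0, 1, 1 and 1 rose, and the list medians lay between -0.26 and 0.04 on the log2 scale. LIG1, the ligase that seals replicated DNA, was lower than in pre-ME + ActA in cjPGCLCs (-0.98 ± 0.16, adjusted p = 9.06e-05) and in soma (-0.94 ± 0.16, adjusted p = 1.42e-04). TRIM28, the co-repressor that protects imprints, was lower in these cjPGCLCs as well (-0.78 ± 0.14, adjusted p = 3.28e-04). Its mean was 7796 in cjPGCLCs and 8292 in soma, against 13451 in pre-ME + ActA. HELLS, a remodeller needed for methylation of repeats, fell under - ActA in cjPGCLCs and soma (-0.74 ± 0.13 and -0.83 ± 0.13, adjusted p = 2.18e-04 and 6.95e-05). DPPA3, a germ cell gene whose product displaces UHRF1 from chromatin, had 32.7 to 49.9 normalised counts in cjPGCLCs, 0 to 5.31 in soma, 69.7 and 105 in cjPSCM cjiPSCs and 1.65 and 2.98 in TESR cjiPSCs. DPPA3 is also among the germ cell markers, and it was the 1 gene of the maintenance list that differed between cjPGCLCs and soma, under each ActA condition (adjusted p = 0.00792 and 0.00172).

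Among 15 genes of base excision repair and the GADD45 family, UNG, which removes uracil, rose and the stress gene GADD45G fell from pre-ME to day 4 in all 4 comparisons. UNG rose by 0.59 ± 0.12 and 0.69 ± 0.12 in cjPGCLCs and soma under + ActA and by 0.34 ± 0.12 and 0.38 ± 0.12 under - ActA (adjusted p = 6.84e-04, 1.74e-04, 0.0275 and 0.0159). GADD45B, another member of that family, had 869 normalised counts on average in TESR pre-ME with ActA against 168 without, and 676 against 85.6 in cjPSCM pre-ME (adjusted p = 4.89e-04 and 1.13e-04). In total 6, 7, 5 and 5 of the 15 fell and 1, 1, 2 and 2 rose in cjPGCLCs and soma under + ActA and in cjPGCLCs and soma under - ActA, with medians of -0.21, -0.46, -0.12 and -0.13.

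Readers of methylated or plain CpG numbered 12. From pre-ME to day 4, CXXC4, a relative of the TET DNA-binding domain, rose in all 4 comparisons, by 1.27 ± 0.15 in cjPGCLCs and 1.37 ± 0.15 in soma under + ActA (adjusted p = 6.21e-06 and 2.83e-06) and by 0.87 ± 0.15 and 0.96 ± 0.15 under - ActA (adjusted p = 2.48e-04 and 1.04e-04). MBD3, a subunit of the NuRD complex, fell under + ActA in cjPGCLCs and soma (-0.92 ± 0.17 and -0.95 ± 0.17, adjusted p = 3.63e-04 and 3.04e-04). The list divided into 4 higher and 4 lower in both day 4 populations under + ActA, and into 5 and 3 higher with none lower under - ActA. The medians were -0.28 and -0.20 under + ActA and 0.26 and 0.15 under - ActA.

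The supply of methyl groups was read from 15 genes. From pre-ME to day 4, 6 fell in both populations under + ActA and 6 and 4 under - ActA, and at most 1 rose, with medians of -0.27 to -0.08. AHCY, which clears the by-product of methyl transfer, fell in all 4, with log2 fold changes of -1.31 and -1.43 under + ActA and -1.11 and -1.20 under - ActA (SE 0.16 each, adjusted p = 8.80e-06, 3.66e-06, 5.14e-05 and 2.37e-05). The vitamin C transporter SLC23A2 was higher in cjPGCLCs than in soma, by 0.97 ± 0.20 under + ActA and 1.48 ± 0.20 under - ActA (adjusted p = 0.00974 and 1.43e-04). MAT2A, which makes the methyl donor, rose from cjiPSCs to pre-ME in each medium and ActA condition, by 0.67 to 1.16 (adjusted p = 1.08e-04 to 0.0129).

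Germline genes that are kept silent by promoter methylation in other cells were mostly at or near 0. Of 12 listed, 11 were in the table and 2 passed the filter, and 7 and 8 of the 11 had 3 counts or fewer in both cjPGCLC libraries under + ActA and - ActA. DAZL had 0 to 1.58 normalised counts in cjPGCLCs and DDX4 had 0 in all 4. SYCP1, a meiosis gene, was the 1 gene past the test, and it was lower at day 4 than in pre-ME, for example at 136 in both cjPGCLC libraries under - ActA against 397 and 579 in the pre-ME (-1.85 ± 0.26, adjusted p = 2.97e-05). It was higher in these pre-ME than in cjPSCM cjiPSCs (1.27 ± 0.25, adjusted p = 9.44e-04). Between cjPGCLCs and cjPSCM cjiPSCs 0 genes of this list passed under either ActA condition.

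The genes most like each member were sought among 12500 genes by Pearson correlation of log2 levels over the 10 condition means, as a description in which points share libraries, depth and the step from culture to embryoid bodies. TET2 was most like PDE3A (r = 0.995), SYNE1 (0.994) and NECAB3 (0.992). TET1 was most like DENND4C (0.973), ARMH4 (0.971) and FHIT (0.961), DNMT3B like MRPL27 (0.972), and DNMT1 like UBAP2L (0.972). UHRF1 was closest to SDC1 (0.949), UHRF2 to ELP2 (0.976), TDG to RNF138 (0.976), DNMT3A to C1H22orf23 (0.951) and TET3 to KCNG1 (0.892). Over replicate 1 or 2 alone, some of these were weaker. DNMT3B with MRPL27 was then at 0.794 and 0.817 and DNMT3A with C1H22orf23 at 0.739 and 0.757, while TET2 with PDE3A stayed at 0.977 and 0.996. As these are the highest values among many genes, they overstate likeness. Among members, the closest pairs over the 10 conditions were UHRF2 with TDG (r = 0.922), DNMT1 with UHRF1 (0.865) and TET1 with TET2 (0.794), and the most opposed were DNMT3B with TET2 (-0.875) and DNMT1 with TET2 (-0.846).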

How the data were processed

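The authors extracted RNA with PicoPure or RNeasy kits per the labels, and the methods also name NucleoSpin (which library had which is not given in the sources used here), made poly(A) libraries, mapped the paired-end reads with STAR 2.7.0a to calJac4 and counted them per gene with HTSeq 0.11, per the labels and the methods. The release of the annotation and the strand setting are not given in the sources used here, so overlapping or antisense genes can share reads. The authors deposited raw counts and a normalised signal, in which each library's counts had been divided by its size factor from DESeq2. Conditions follow the labels, which spell the starting medium of day 4 cells in 2 ways. Doses and times come from the methods. Summary lines for reads outside genes (10.6% to 23.2% of the counted reads) and ambiguous reads (0.268% to 0.350%) were left out. Counts per library and the level of 3 counts are given in the text.

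Raw counts were tested with edgeR 4.0.16 (R 4.3.3; quasi-likelihood F-test, TMM, filterByExpr, 1 coefficient per condition over 20 libraries, 10 residual degrees of freedom, common dispersion 0.0203), two-sided, with Benjamini-Hochberg adjustment over 15797 genes within each of 17 comparisons and 4 interactions. The threshold was an adjusted p of 0.05, and in addition a log2 fold change beyond 2 where stated. Correlations used log2 of the mean normalised count plus 1. Python 3.11.15 with pandas 2.3.3 wrote the tables and matplotlib 3.10.9 drew the figures. The procedure was tested on simulated data with 200 genes changed by a log2 fold of 2 among 15228. There edgeR called 191 between cjiPSC media and 179 between cjPGCLCs and soma + ActA, with 10 unchanged genes called in each. All simulated libraries shared 1 dispersion, so the larger replicate spread of the cjiPSCs was not reproduced. Smaller changes, such as most of those of the members, were not simulated. Alternatives were DESeq2 1.42.0, edgeR fitted to a comparison's own libraries, DESeq2 size factors, no filter, a mean of 1 CPM, the replicate block, each library left out (20 fits) and a pseudocount of 10. A block with crossed numbers was added after seeing the data.

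The members and 13 gene lists were chosen with earlier results of these data known. All members are named. For each list at most the 2 genes with the largest change each way are named, among those past the test whose replicates did not overlap, and the 3 genes most like each member were sought among genes whose mean normalised count reached 10. Not all of these are reported here. Levels of further markers (NANOS3, SOX17, HNF4A, DAZL, DDX4) were picked after their values were seen.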

Additional observations from a re-analysis of the deposited data

Results flagged for a closer look

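UHRF1 differed between the media in its change from cjiPSCs to pre-ME + ActA. The difference of the log2 fold changes, cjPSCM minus TESR, was 1.01 ± 0.28 (adjusted p = 0.0432, edgeR, n = 2 libraries per condition). UHRF1 had 5107 and 7384 normalised counts in TESR cjiPSCs and 4279.6 and 4346 in the pre-ME made from them, and 2106 and 3649.5 in cjPSCM cjiPSCs and 4329 and 3616 in their pre-ME. All pre-ME libraries were thus below the TESR cjiPSCs and 3 of 4 were above both cjPSCM cjiPSC libraries. The value ranged from 0.67 to 1.43 and the adjusted p from 4.79e-04 to 0.196 when 1 of the 8 libraries was left out. Its adjusted p was 0.335 in a fit of these libraries alone, 0.0517 with DESeq2 size factors and 0.0161 in DESeq2. The replicate spread of the cjiPSC libraries, which was the largest of the study, moves with this result, and its part in it was not tested.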

How the results depend on the processing

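Counts of members past the test are given here out of 9. DESeq2 gave the same call as edgeR in 181 of 189 tests of members, the size factors in 186, no filter in 181, a mean of 1 CPM in 188 and the replicate block in 189. DESeq2 called 2 members instead of 1 from TESR cjiPSCs to pre-ME + ActA, between cjPGCLCs and soma - ActA and in the difference of pre-induction with ActA between media, and 1 instead of 0 between cjPGCLCs of the ActA conditions. Without the filter the count was 2 in the first and second of these and 1 in the last, and it was 1 instead of 0 from cjPSCM cjiPSCs to pre-ME + ActA and in the difference of the ActA effect between media, and 5 instead of 4 from TESR cjiPSCs to pre-ME - ActA. DESeq2 and no filter each gave 4 instead of 3 from pre-ME - ActA to soma and 5 instead of 6 from cjiPSCs to cjPGCLCs - ActA, and a mean of 1 CPM gave 7 instead of 6 from pre-ME + ActA to cjPGCLCs. With DESeq2 size factors the difference of pre-induction with ActA had 0. DESeq2 and its size factors each called 5 instead of 4 from cjPSCM cjiPSCs to pre-ME - ActA and for ActA in cjPSCM pre-ME, through DNMT3A.

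Fits of a comparison's own libraries, which have fewer samples to estimate the spread, changed 40 calls. Comparisons with cjiPSCs lost members, to 1 between media, 0 from TESR cjiPSCs to pre-ME in either ActA condition, 0 from cjPSCM cjiPSCs to pre-ME - ActA, 2 from cjiPSCs to cjPGCLCs in either ActA condition and 0 in the difference of pre-induction with ActA. Others gained, to 7 and 6 from pre-ME + ActA to cjPGCLCs and soma, 4 from pre-ME - ActA to soma, 3 and 7 for ActA in TESR and cjPSCM pre-ME, 5 for the difference of these effects, 2 and 3 between cjPGCLCs and soma + ActA and - ActA and 1 between cjPGCLCs of the ActA conditions.

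Leaving out 1 library outside the comparison moved 87 of 2880 calls. With 1 library of the comparison left out, 800 of 900 calls stayed. Calls described as holding without each library in turn refer to these latter fits, in which 1 condition has 1 library and adds nothing to the spread. The count ranged from 3 to 7 between the media, 1 to 5 and 0 to 4 from TESR cjiPSCs to pre-ME + ActA and - ActA, 0 to 5 and 2 to 6 from cjPSCM cjiPSCs, 0 to 5 for ActA in cjPSCM pre-ME and 0 to 1 between cjPGCLCs and soma - ActA. From pre-ME + ActA it was 4 to 5 in cjPGCLCs and 2 to 3 in soma, from pre-ME - ActA 3 throughout and 2 to 4, from cjiPSCs to cjPGCLCs 3 to 5 and 4 to 5, and in the differences of pre-induction between media 0 to 3 with and without ActA. DNMT3B changed direction without cjPSCM cjiPSC replicate 2. It went to -0.94 between the media, against 0.65 without replicate 1, and to 0.70 from cjPSCM cjiPSCs to pre-ME + ActA, against -0.90. In the difference of pre-induction with ActA it went to 0.66, against -0.94. The cause was not tested.

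No source says that equal replicate numbers share a culture or day. Deviations of same-numbered libraries correlated at 0.251, 0.253 and 0.258 between the ActA conditions of TESR pre-ME, cjPSCM pre-ME and cjPGCLCs and at -0.204 to 0.131 in the other 14 comparisons, so with 2 libraries a condition pairing was not assumed. The replicate block left each count as it was, such as 4 between the media. Crossed numbers, added after seeing the data, gave 0, 4 and 4 from cjPSCM cjiPSCs to pre-ME + ActA, to pre-ME - ActA and from pre-ME - ActA to soma. A pseudocount of 10 moved none of the 27 correlations of members with the genes most like them beyond its spread. Correlations between members were not rerun with it. Depth limits DNMT3L, which had at most 14 counts in any library.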
